A study of Mus musculus with 6 samples.

Results

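The genes described here encode the machinery that fills, docks, fuses and recycles synaptic vesicles, measured by RNA-seq in cultures of mouse cerebellar granule neurons (CGNs) exposed to GSK-126 or to its vehicle DMSO. They are 52 genes listed by role: 8 vesicle membrane proteins, 9 calcium sensors, 3 synapsins, 10 genes of SNARE fusion, 12 of the active zone, 4 Rab3 proteins and rabphilin, and 6 of endocytosis and recycling. All 52 have a row in each count table, and 49 of them passed the filter on low counts, which left 16343 genes to test. The 3 that did not pass were Rims1, Cplx3 and Rab3b.

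There were 3 DMSO libraries and 3 GSK-126 libraries, numbered as replicates 1 to 3 in each group. GSK-126 inhibits EZH2, the enzyme of Polycomb repressive complex 2 (PRC2) that places the repressive mark H3K27me3 on histone H3. The labels give the agent and the tissue of origin, the cerebellum, but neither the dose nor the day in culture. Per the study's methods, the neurons came from pooled cerebella of CD1-IGS mice at P6-P8 (postnatal days), were enriched on a density gradient, and received a drug against dividing cells in culture, and a replicate in culture stands for neurons of pooled litters. All 6 libraries share this preparation. The methods also state that inhibitors were added 1 time, on day 1 or day 3 in culture, before harvest on a later day. Which day of addition these libraries had is not in their labels.

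When an action potential reaches a nerve terminal, calcium enters beside docked vesicles. Synaptotagmins on the vesicle bind it, the SNARE proteins SNAP25, syntaxin and VAMP pull vesicle and plasma membrane together, and complexins clamp and then assist that step. RIM, Munc13 (Unc13) and the scaffolds Bassoon and Piccolo hold and prime vesicles at the active zone, while dynamin, amphiphysin, endophilin and synaptojanin retrieve the membrane afterwards. CGNs, the most numerous neurons of the brain, form the parallel fiber synapses onto Purkinje cells with this machinery, and they acquire it as they mature.

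The replicate numbers paired the samples. The deviations of same-numbered libraries from their group means correlated at 0.351 to 0.517 across genes, against -0.411 to -0.0103 for other pairings, so calls are given from fits without and with a term for the replicate number (the replicate block). No library pair agreed within sampling noise. Total gene counts were 8058760 to 8573045 in the DMSO libraries and 8377056 to 12047837 in the GSK-126 libraries, and 39.1% to 41.6% of the reads counted fell in a gene.

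The release genes held a smaller share of the mRNA under GSK-126 than under DMSO in every replicate pair. They held 0.950%, 1.33% and 0.961% of all gene counts in DMSO replicates 1 to 3, and 0.693%, 1.08% and 0.761% in the GSK-126 replicates. GSK-126 replicate 2 lay above DMSO replicates 1 and 3, so the groups overlapped. In edgeR's quasi-likelihood fit with the replicate block, the log2 fold change was below 0 for 44 of the 49 members, where 50.4% of all tested genes had such a value. The members were chosen with earlier results of these data known, so this is a description of the list. The median log2 fold change of the members was -0.28 with the block and -0.27 without it, beside a median of -0.0020 over all genes tested with the block. Without the block the members' median moved when a library was left out. It was -0.16 without DMSO replicate 2, also -0.16 without GSK-126 replicate 1, and -0.54 without GSK-126 replicate 2. By pair, the members' median log2 ratio was -0.44, -0.21 and -0.32.

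Whether single genes passed the test depended on the block. Without it, no member was called at an adjusted p under 0.05 in either direction, and 0% of all genes tested were called in either direction. At an unadjusted p under 0.05 the same fit gave 10 members lower and 1 higher, against 2.58% of all genes lower and 3.43% higher. With the block, 12 members were called lower, where the background was 1.42% of genes, and 1 was called higher, where it was 2.23%. DESeq2 without the block called 3 members lower (Sv2c, Rims3 and Unc13c) and none higher, against backgrounds of 0.0795% and 0.281%, with 10 members lower and 1 higher at an unadjusted p under 0.05, where 2.4% and 3.69% of all genes were. DESeq2 with the block called 14 lower and 1 higher, against 1.6% and 2.5%. In the sentences that follow, "rose" and "fell" mean called by edgeR's quasi-likelihood test with the replicate block, and adjusted p-values are Benjamini-Hochberg values from that fit over all genes tested unless stated otherwise.

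**Figure D1:**
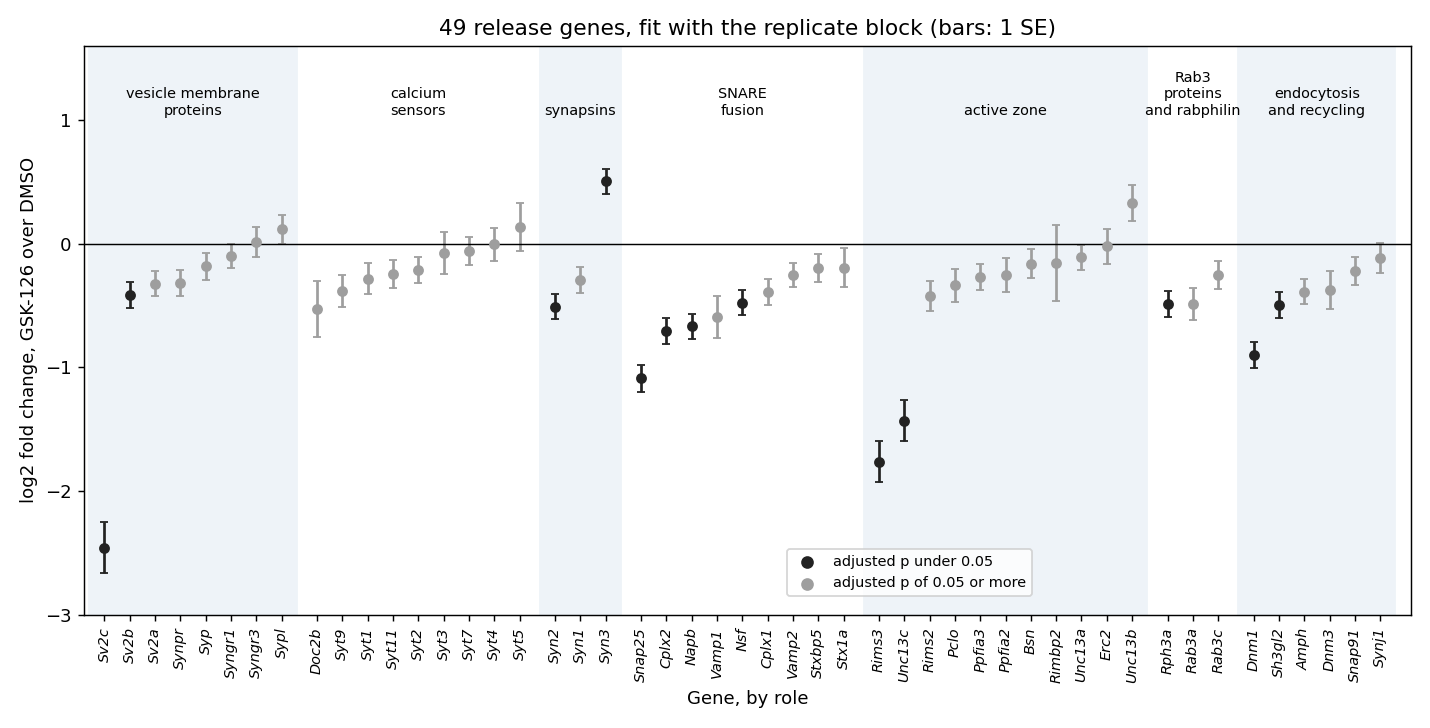
Log2 fold change of each of the 49 tested release genes (GSK-126 over DMSO, fit with the replicate block) by role, with bars of 1 SE. Dark points are the 13 genes with an adjusted p under 0.05. Sv2c, Rims3, Unc13c and Snap25 lie below -1, Syn3 is the single dark point above 0, and 44 of the 49 points lie below 0.

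The members moved together across replicate numbers as well as across treatment. In 34 of the 49 tested members the GSK-126 library was lower in 3 of 3 pairs (19.3% of all genes tested), in 3 members it was higher in 3 of 3 (19.7%), and 12 were mixed. The libraries of the groups did not overlap for 6 members below DMSO (5.44% of genes) and 2 members above (5.43%). The replicate terms of the model were themselves called for 23 members, against 11.6% of all genes tested. Replicate 2 was the highest library for 41 members in DMSO and for 42 in GSK-126, where 35.1% and 38.6% of all genes had that order. Thus the cultures numbered 2 carried more of this mRNA with and without the inhibitor, and most members show overlapping groups although each pair went down.

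Markers of cell types moved with these results and their part in them was not tested. All 10 granule neuron markers were above 1 CPM (a count scaled to the size of its library) in every library, and their summed level was 4847 to 6473 CPM in DMSO and 3372 to 5385 CPM in GSK-126, lower in 3 of 3 pairs. Their median log2 fold change was -0.45, with 5 of 10 called lower, among them Gabra6, a GABA-A receptor subunit of mature granule neurons (-1.42), Cbln3 (-1.45) and Etv1 (-1.06). Barhl1 (0.39, higher in 3 of 3 pairs, adjusted p = 0.21) and Pax6 (0.04, adjusted p = 0.89) had values above 0. The 10 pan-neuronal markers had a median of -0.25, close to that of the release genes. Of these, Rbfox3 (-0.59) and Nefl (-0.54) fell, Tubb3 was at 0.36 with an adjusted p of 0.17, and the summed level was 2624 to 3641 CPM in DMSO and 2163 to 3213 CPM in GSK-126, again lower in 3 of 3 pairs. The 10 GABAergic neuron markers, 9 of which were tested, summed to 266 to 369.6 CPM in DMSO and 222 to 264 CPM in GSK-126, with 2 called lower.

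Markers of non-neuronal cells were present in every culture. The 6 fibroblast markers summed to 6793 to 8889 CPM in DMSO and 8946 to 9931 CPM in GSK-126, so the groups did not overlap, with 2 of 6 called higher and a median log2 fold change of 0.31. The microglia list summed to 296 to 503 CPM against 356 to 766 CPM, with 2 of 9 tested members higher and Trem2 at 0 in every library. The endothelial and mural list, which shares Pdgfrb (called higher) with the fibroblast list, had 2 of 8 higher with sums of 205 to 321 CPM against 283 to 412 CPM. The oligodendrocyte lineage list had 1 of 10 higher with sums of 525 to 797 CPM against 585 to 925 CPM. The sums of the fibroblast, microglia, endothelial and mural, and oligodendrocyte lineage lists were each higher in 3 of 3 pairs. The 7 tested proliferation markers gave no call and a median of 0.03, with sums of 290.0 to 423 CPM against 326 to 435 CPM, also higher in 3 of 3 pairs. The 10 astrocyte and Bergmann glia markers gave 1 call, Gdf10 higher, and a median of 0.06. Their sum divided the replicate numbers rather than the treatments, at 7905, 2728 and 4893 CPM in DMSO replicates 1 to 3 and 8148, 2725 and 4231 CPM in GSK-126. It was lowest in replicate 2, the replicate in which most release genes were highest. In bulk samples such as these, fewer neurons and less of an mRNA per neuron cannot be told apart.

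**Figure D2:**
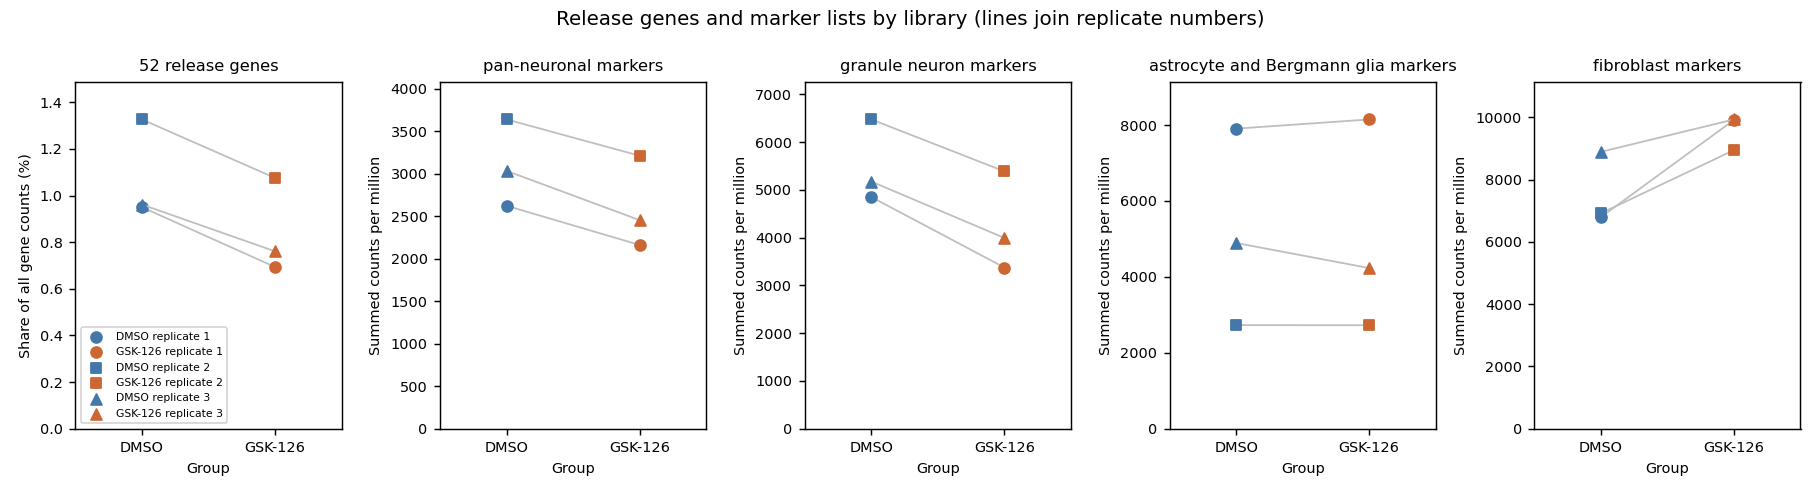
Share of all gene counts held by the 52 release genes (%, left) and summed CPM of 4 marker lists in each library, with DMSO in blue, GSK-126 in orange, a symbol for each replicate number and lines joining the same number. The release genes and both neuronal lists were lower under GSK-126 in 3 of 3 pairs, the fibroblast list was higher in 3 of 3, and the astrocyte list followed the replicate number.

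The upstream sequences of Sv2c, Rims3, Unc13c and Dnm1, which were among the 5 largest falls, are printed here because PRC2 is known to act at promoters rich in CG dinucleotides, and those of Unc13a and Unc13b because they are paralogs of Unc13c that were not called. Snap25 had no window. RefSeq windows (GRCm38.p6) covered 43 of the 52 members, 34 of them with a single window. Each sequence is the 250 bases before the RefSeq start on the strand of the gene, 5′ to 3′, with every CG dinucleotide in capitals. Sv2c lies at chr13:96132578-96132827 (minus strand), Rims3 at chr4:120854549-120854798 (plus strand), Unc13c at chr9:73969038-73969287 (minus strand), Unc13a at chr8:71671758-71672007 (minus strand), Unc13b at chr4:43058703-43058952 (plus strand) and Dnm1 at chr2:32353330-32353579 (minus strand).
Sv2c: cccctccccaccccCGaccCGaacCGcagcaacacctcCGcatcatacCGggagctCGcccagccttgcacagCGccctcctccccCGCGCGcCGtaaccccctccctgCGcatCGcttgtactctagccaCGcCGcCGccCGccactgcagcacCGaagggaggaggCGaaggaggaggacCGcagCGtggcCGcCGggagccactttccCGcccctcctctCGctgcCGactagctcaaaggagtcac
Rims3: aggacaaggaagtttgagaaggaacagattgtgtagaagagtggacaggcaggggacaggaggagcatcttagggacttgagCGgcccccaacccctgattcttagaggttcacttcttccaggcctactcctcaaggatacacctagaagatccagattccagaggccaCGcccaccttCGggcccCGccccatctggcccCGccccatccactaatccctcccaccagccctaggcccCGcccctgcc
Unc13c: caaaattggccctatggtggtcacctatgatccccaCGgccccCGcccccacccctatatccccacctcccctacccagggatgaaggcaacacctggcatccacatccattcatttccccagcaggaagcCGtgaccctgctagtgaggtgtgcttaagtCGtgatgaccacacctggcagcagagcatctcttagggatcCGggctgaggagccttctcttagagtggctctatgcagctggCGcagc
Unc13a: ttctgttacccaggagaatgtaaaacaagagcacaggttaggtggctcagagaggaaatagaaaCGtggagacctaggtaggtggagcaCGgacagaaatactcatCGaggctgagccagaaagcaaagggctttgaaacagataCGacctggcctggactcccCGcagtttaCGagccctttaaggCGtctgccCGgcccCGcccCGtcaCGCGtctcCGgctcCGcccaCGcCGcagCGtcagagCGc
Unc13b: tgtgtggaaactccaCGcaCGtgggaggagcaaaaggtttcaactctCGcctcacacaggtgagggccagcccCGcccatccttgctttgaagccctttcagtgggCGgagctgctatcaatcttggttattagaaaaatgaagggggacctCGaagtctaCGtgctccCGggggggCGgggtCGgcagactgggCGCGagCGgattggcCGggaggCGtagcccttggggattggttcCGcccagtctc
Dnm1: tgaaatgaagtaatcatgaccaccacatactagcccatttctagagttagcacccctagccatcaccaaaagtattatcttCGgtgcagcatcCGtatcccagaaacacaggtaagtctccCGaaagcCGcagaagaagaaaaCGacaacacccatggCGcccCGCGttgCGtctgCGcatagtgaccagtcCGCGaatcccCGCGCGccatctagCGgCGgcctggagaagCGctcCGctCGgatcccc
The stretch before Sv2c held 26 CG dinucleotides, and 9.59% of all windows held as many or more. That of Dnm1 held 20, whereas those of Rims3 and Unc13c held 6 each, which is the median of all 32851 windows. The stretches before Unc13a and Unc13b, whose genes were not called, held 18 and 16. Among members with a single window, the 8 that fell had a median of 15.5 CG dinucleotides (range 6 to 30) and the other 26 a median of 15.5 (range 4 to 40), the same median.

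Among the vesicle membrane proteins, Sv2c and Sv2b fell. SV2 proteins are transporter-like proteins of the vesicle membrane that bind synaptotagmin. Sv2c (chr13:95954594-96132577, minus strand) was at 34.7, 52.5 and 26.4 CPM in DMSO replicates 1 to 3 and at 7.58, 6.51 and 5.81 CPM in GSK-126. Every GSK-126 library was far below every DMSO library, and the order of the replicates in DMSO was not kept under GSK-126. The level fell by 81.8%, a log2 fold change of -2.46 ± 0.21 (SE) with an adjusted p of 0.00034, and DESeq2 without the block called it too (adjusted p = 1.3e-11), whereas edgeR without the block gave 0.24, the smallest adjusted p of any gene in that fit. Its share of SV2 mRNA, per kilobase of exon, went from 3.85% ± 0.69 to 0.945% ± 0.28 (SD, n = 3 libraries a group).

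The major SV2 paralogs changed less. Sv2b was at 369, 456 and 324 CPM in DMSO and 255, 374 and 242 CPM in GSK-126. The groups overlapped, but each pair went down, and Sv2b fell by 24.9% (log2 -0.41 ± 0.10, adjusted p = 0.049). This call stood at the threshold, and leaving out any 1 replicate number ended it, with adjusted p-values from 0.053 to 0.304. Sv2a had a log2 fold change of -0.32 ± 0.10 and an adjusted p of 0.12. Sv2a and Sv2b made up nearly all SV2 mRNA in both groups, at 50.1% and 46.1% per kilobase in DMSO and 53.1% and 45.9% in GSK-126.

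The remaining vesicle membrane proteins were not called. Synaptophysin (Syp) had the most mRNA per kilobase of the genes in this role (109 CPM per kb in DMSO). It was at 406, 763 and 534 CPM in DMSO and 420, 592 and 456 CPM in GSK-126. Only the pairs numbered 2 and 3 went down, and its log2 fold change was -0.18 ± 0.11 (adjusted p = 0.44). In Syp, 16.8% of exon bases overlap Gm14703 on the opposite strand. The log2 fold changes of Synpr (synaptoporin, -0.31), Syngr1 (-0.10), Syngr3 (0.02) and Sypl (0.12) had adjusted p-values between 0.15 and 0.97.

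None of the 9 genes listed as calcium sensors was called, and their log2 fold changes ran from -0.53 to 0.14 with a median of -0.21. The list follows gene family, and whether each protein senses calcium was not tested. Without the block the median was also -0.21, and it ranged from -0.07 without DMSO replicate 2 to -0.38 without GSK-126 replicate 2, with -0.08 without GSK-126 replicate 1 and -0.10 without GSK-126 replicate 3. Synaptotagmin 4 (Syt4), the most abundant per kilobase of exon at 129 CPM per kb in DMSO, was at 556, 484 and 466 CPM in DMSO and 454, 654 and 421 CPM in GSK-126, with 1 pair higher and 2 lower and a log2 fold change of -0.0036 ± 0.13. In Syt4, 14.5% of exon bases overlap a gene on the opposite strand. Syt1, the main sensor of fast release in forebrain, was at -0.28 ± 0.12 (adjusted p = 0.28), and Syt2, the fast sensor of many hindbrain terminals, at -0.21 ± 0.11 (adjusted p = 0.36). Syt1 made up 84.4% ± 3.0 of the Syt1 and Syt2 mRNA per kilobase in DMSO and 83.5% ± 5.0 in GSK-126. The other synaptotagmins were Syt9 (-0.38), Syt11 (-0.24), Syt3 (-0.07), Syt7 (-0.06) and Syt5 (0.14). Doc2b, a sensor linked to spontaneous release, was low, at 11.1, 13.5 and 9.22 CPM in DMSO and 8.16, 7.71 and 7.29 CPM in GSK-126. Its groups did not overlap, yet its log2 fold change of -0.53 ± 0.23 had an adjusted p of 0.26.

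The synapsins, which tether vesicles in the reserve pool, moved apart. Syn2 (chr6:115134902-115282006) was at 396, 511 and 394 CPM in DMSO and 258, 399 and 269 CPM in GSK-126. GSK-126 replicate 2 was above DMSO replicates 1 and 3, and Syn2 fell by 29.7% (log2 -0.51 ± 0.10, adjusted p = 0.022). Syn3 (chr10:86055125-86498896) was at 154, 125 and 166 CPM in DMSO and 210, 196 and 224 CPM in GSK-126. All GSK-126 libraries were above all DMSO libraries, and Syn3 rose with a log2 fold change of 0.50 ± 0.10 (adjusted p = 0.025). Both calls stood only when replicate 1 was the number left out. Syn3 was also the reverse of the general replicate order in both groups, with replicate 2 the lowest. Of its exon bases, 14.1% overlap Timp3 on the opposite strand, and whether the counting used strand is not given in the sources used here.

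Syn1, the most abundant synapsin per kilobase in DMSO, was at 184, 249 and 198 CPM in DMSO and 138, 225 and 157 CPM in GSK-126, with a log2 fold change of -0.30 ± 0.11 and an adjusted p of 0.18. Within the family, per kilobase, the share of Syn3 was 8.995% ± 2.2 in DMSO and 15.6% ± 3.7 in GSK-126, that of Syn2 was 44.8% ± 1.4 and 38.5% ± 1.7, and that of Syn1 was 46.2% ± 1.5 and 46.0% ± 2.4. The shares of Syn2 and Syn3 did not overlap between the groups and those of Syn1 did.

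**Figure D3:**
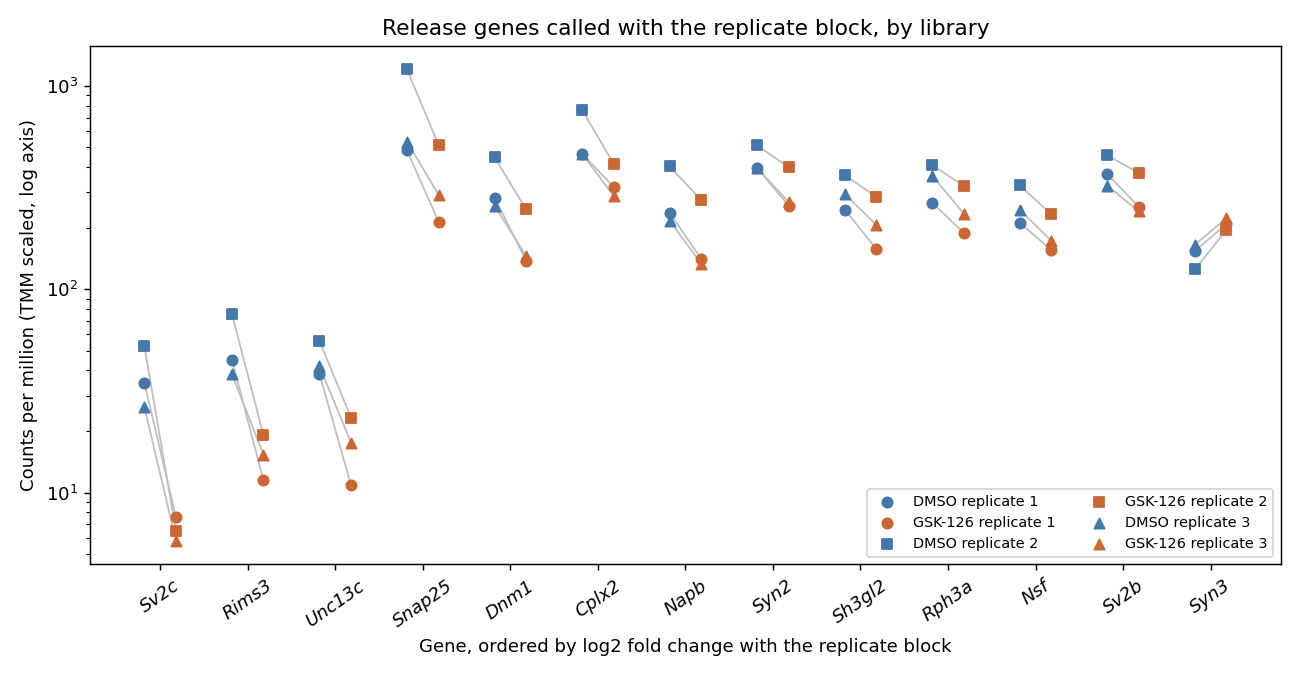
Level of the 13 called release genes in each library (CPM, log axis), with DMSO in blue, GSK-126 in orange, a symbol for each replicate number and lines joining the same number. Each of the 12 genes on the left goes down in 3 of 3 pairs and Syn3 goes up in 3 of 3, while replicate 2 is the highest DMSO library for the 12 and the lowest for Syn3.

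The SNARE fusion genes had the most calls of any role. All 9 that were tested had a log2 fold change below 0, from -1.09 to -0.19 with a median of -0.48, and 4 of them fell. Without the block the median was also -0.48, and it ranged from -0.26 without DMSO replicate 2 to -0.67 without GSK-126 replicate 2. Snap25 (chr2:136713453-136782428), the plasma membrane SNARE of most neurons, was at 483, 1207 and 534 CPM in DMSO and 215, 515 and 292 CPM in GSK-126. DMSO replicate 2 was more than double the other DMSO libraries, and GSK-126 replicate 2 was above DMSO replicate 1, so that the groups overlapped although every pair dropped by a like amount. Snap25 fell by 53.0% (log2 -1.09 ± 0.11, adjusted p = 0.00072), while without the block its SE was 0.42 and its adjusted p 0.81.

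Complexins are small proteins that bind the assembled SNAREs, and Cplx1 and Cplx2 were among the 4 members with the highest level per kilobase in DMSO. Cplx2 (chr13:54371349-54383917) was at 464, 765 and 465 CPM in DMSO and 320, 414 and 289 CPM in GSK-126. Its groups did not overlap, and Cplx2 fell by 38.6% (log2 -0.70 ± 0.11, adjusted p = 0.0064), a call that was lost without replicate 2 (adjusted p = 0.075). Cplx1 was at 264, 400 and 325 CPM in DMSO and 219, 310 and 224 CPM in GSK-126. It had a log2 fold change of -0.39 ± 0.10 and an adjusted p of 0.064, and DESeq2 with the block called it (adjusted p = 0.033). Cplx3 had at most 0.75 CPM in any library and was not tested.

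The products of Napb and Nsf help to take the SNARE complex apart after fusion. Napb (beta-SNAP) was at 238, 403 and 218 CPM in DMSO and 141, 275 and 134 CPM in GSK-126, a drop in every pair with overlapping groups. It fell by 37.1% (log2 -0.67 ± 0.10, adjusted p = 0.0070). Nsf, the ATPase that Napb recruits, was at 213, 325 and 247 CPM in DMSO and 156, 234 and 173 CPM in GSK-126. It fell by 28.1% (log2 -0.48 ± 0.10, adjusted p = 0.025), and this call stood only when replicate 1 was the number left out. The other SNAP genes, Napa (-0.20, adjusted p = 0.38) and Napg (-0.29, adjusted p = 0.17), which are not among the 52, were not called.

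Other SNARE genes were not called. Vamp1, a vesicle SNARE of fast hindbrain synapses, was at 17.995, 33.0 and 18.2 CPM in DMSO and 11.99, 19.2 and 13.9 CPM in GSK-126, with a log2 fold change of -0.59 ± 0.17 and an adjusted p of 0.097. Vamp2, its abundant paralog, was at -0.25 ± 0.10 (adjusted p = 0.21) and made up 98.3% of the Vamp1 and Vamp2 mRNA per kilobase in DMSO. Stx1a (-0.19) and Stxbp5 (tomosyn, -0.20) had adjusted p-values of 0.61 and 0.44.

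At the active zone 2 genes fell, Rims3 and Unc13c. RIM3, the product of Rims3, is a short RIM isoform that binds other active zone proteins. Rims3 (chr4:120854816-120896579) was at 45.1, 75.6 and 38.3 CPM in DMSO and 11.5, 19.2 and 15.4 CPM in GSK-126. Every GSK-126 library was below every DMSO library by a wide gap, and Rims3 fell by 70.5% (log2 -1.76 ± 0.17, adjusted p = 0.00072). DESeq2 without the block called it too (adjusted p = 2.8e-05), and edgeR without the block gave 0.46.

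Unc13c encodes Munc13-3, the Munc13 priming factor that is largely particular to the cerebellum and enriched in granule neurons. It was at 38.3, 55.8 and 41.8 CPM in DMSO and 10.9, 23.4 and 17.7 CPM in GSK-126. The groups did not overlap, and Unc13c (chr9:73479422-73968966) fell by 62.9% (log2 -1.43 ± 0.16, adjusted p = 0.0017). DESeq2 without the block gave an adjusted p of 0.0043. Its paralogs behaved otherwise. Unc13a, the most abundant active zone gene per kilobase in DMSO, was at 205, 326 and 210 CPM in DMSO and 187, 280 and 213 CPM in GSK-126, a log2 fold change of -0.11 ± 0.10 (adjusted p = 0.66). Unc13b was at 37.0, 33.6 and 26.1 CPM in DMSO and 41.0, 39.4 and 40.3 CPM in GSK-126. Its GSK-126 libraries were all above its DMSO libraries, and its log2 fold change was 0.33 ± 0.15 with an adjusted p of 0.28.

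The paralog shares put these differences on a scale that does not depend on the total level of the paralogs compared. Only members were compared, so a share is not that of a whole gene family. Lengths were those of all annotated exons merged, not of single transcripts, so the shares are not transcript proportions. Per kilobase, Rims3 held 49.1% ± 4.6 of Rims2 plus Rims3 mRNA in DMSO and 27.7% ± 3.5 in GSK-126, and Unc13c held 19.8% ± 1.1 of Munc13 mRNA in DMSO and 8.88% ± 1.7 in GSK-126 (SD, n = 3 libraries a group). The share of Unc13a was 74.6% in DMSO and 82.7% in GSK-126, without a call in its level. Of the 24 shares computed over 9 families, 11 did not overlap between the groups. A two-sided exact permutation test of 3 against 3 libraries cannot go below p = 0.10, which each of these 11 reached, and the smallest value adjusted over the 24 shares was 0.218, so no share could pass the threshold. Shares within a family depend on one another, and 11 is therefore not a count of separate changes.

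**Figure D4:**
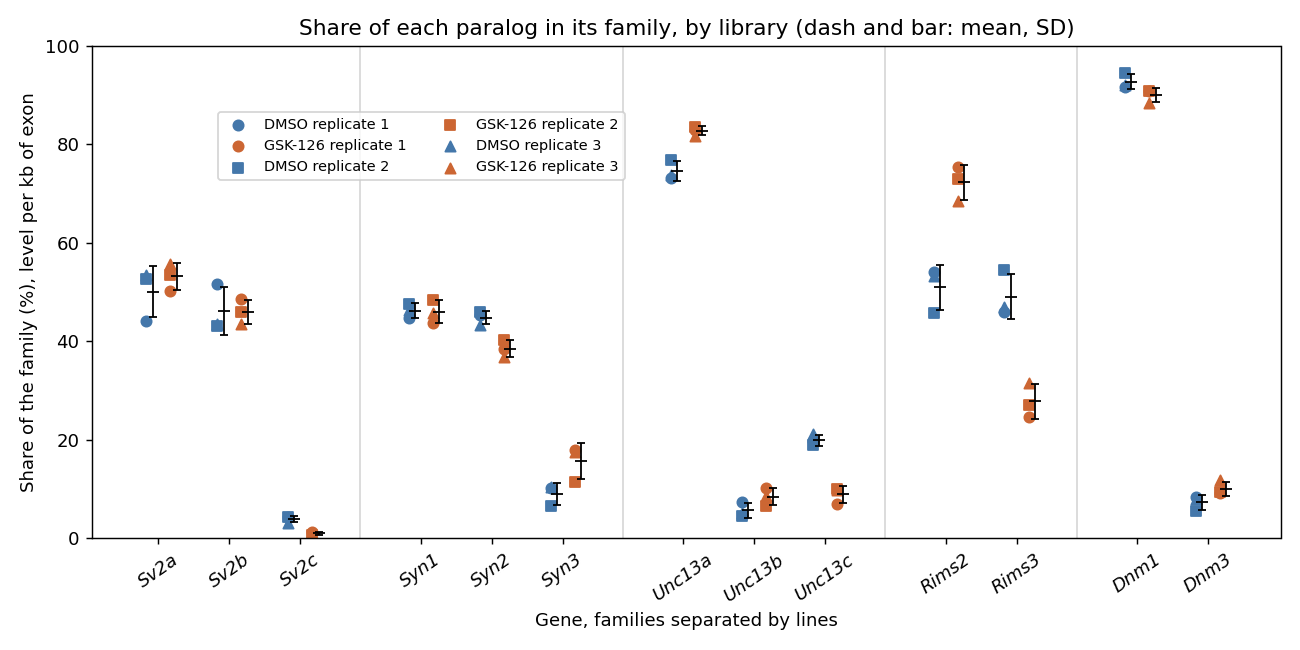
Share of each paralog among the listed members of its family (%, level per kilobase of exon) in each library for the SV2, synapsin, Munc13, RIM and dynamin families, with DMSO in blue, GSK-126 in orange and the mean and SD beside the points. Rims4 and Dnm2 are not among these members. Rims3, Unc13c, Sv2c and Syn2 lie lower under GSK-126 and Rims2, Unc13a and Syn3 higher, with no overlap of the libraries.

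The rest of the active zone gave no call. Rims2 was at -0.42 ± 0.12 (adjusted p = 0.084). The scaffold genes Pclo (-0.34) and Bsn (-0.16), the liprins Ppfia3 (-0.27) and Ppfia2 (-0.25), Rimbp2 (-0.16) and Erc2 (-0.02) had adjusted p-values between 0.22 and 0.96. In Ppfia2, 24.5% of exon bases overlap genes on the opposite strand, Acss3 and C230021G24Rik. Rims1 was listed at 0 in all 6 libraries, where 3 counts, the upper limit that a count of 0 allows, equal 0.249 to 0.372 CPM. Whether its reads were assigned elsewhere was not tested, so nothing is said here of RIM1 itself, and the RIM shares above are shares of Rims2 plus Rims3. They leave out Rims4, which is not a member. Rims4 was at a mean of 99.9 CPM in DMSO and 92.0 CPM in GSK-126 (log2 -0.10, adjusted p = 0.71).

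Of the Rab3 group, which marks vesicles for docking, Rph3a fell. Rabphilin, its product, binds Rab3 on the vesicle and SNAP25. Rph3a (chr5:120940499-121010092) was at 267, 410 and 362 CPM in DMSO and 189, 323 and 236 CPM in GSK-126. The groups overlapped and each pair dropped, with a fall of 28.6% (log2 -0.49 ± 0.10, adjusted p = 0.027) that stood only when replicate 1 was the number left out. Rab3a had nearly the same log2 fold change, -0.48 ± 0.13, and an adjusted p of 0.066. Rab3c was at -0.25 ± 0.11 (adjusted p = 0.29), and its replicate terms were called, with 407 CPM in DMSO replicate 2 against 199.7 and 249 CPM in the others. Rab3b did not exceed 1.81 CPM in any library and was not tested.

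Among the genes of membrane retrieval, all 6 had a log2 fold change below 0 and 2 fell. Dnm1, the neuronal dynamin that cuts vesicles from the plasma membrane (chr2:32308471-32353338), was at 283, 446 and 258 CPM in DMSO and 138, 248 and 146 CPM in GSK-126. The highest GSK-126 library was just below the lowest DMSO library, and Dnm1 fell by 46.4% (log2 -0.90 ± 0.10, adjusted p = 0.0018). Dnm1 made up 92.7% ± 1.5 of Dnm1 plus Dnm3 mRNA per kilobase in DMSO and 89.97% ± 1.4 in GSK-126. This share rests on merged exons of 5249 bases for Dnm1 and 24452 for Dnm3. Before division by length their means in DMSO were 329 and 115 CPM. The share also leaves out Dnm2, which is not a member. Dnm2 was at a mean of 130 CPM in DMSO and 141 CPM in GSK-126 (log2 0.11, adjusted p = 0.70). Sh3gl2 (endophilin A1) was at 247, 365 and 294 CPM in DMSO and 158, 286 and 208 CPM in GSK-126. It fell by 29.2% with overlapping groups (log2 -0.50 ± 0.10, adjusted p = 0.026), and the call stood only when replicate 1 was the number left out. Amph (-0.39, adjusted p = 0.066), Dnm3 (-0.37), Snap91 (AP180, -0.22) and Synj1 (-0.12) were not called, and DESeq2 with the block called Amph (adjusted p = 0.047).

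The calls differed in how far they rested on 1 replicate number. Sv2c, Rims3, Unc13c, Snap25, Dnm1 and Napb were called in each of the 3 fits with the block that left out 1 number, and Cplx2 in 2 of 3. Syn2, Syn3, Nsf, Rph3a and Sh3gl2 were called in 1 of 3, and Sv2b in none. Without replicate 2 the number called lower was 6 and without replicate 3 it was 7, and none was called higher in either fit. The shares of all genes called in these fits are not given here, and whether fewer libraries lowered calls in general was not tested. The log2 fold changes of the called genes kept their sign in each of these fits.

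Membership of the study's lists of promoters with a changing H3K27me3 mark was set beside the fold changes. These lists come from chromatin libraries that were not analysed here. The study's lists of promoters that change as these neurons mature in culture were not used. Of the 52 members, 8 (15.4%), all of them tested, were on the lists of promoters that lose the mark as the cerebellum matures, against 6.22% of the genes tested. The 8 were Sv2c, Syngr3, Syt2, Syt7, Snap25, Rph3a, Dnm1 and Dnm3. Of these, 4 fell and their median log2 fold change was -0.43, while of the 41 other tested members 8 fell and 1 rose, with a median of -0.27. The share of all genes on these lists that fell is not given here, and a link between the lists and the falls was not tested. Sv2c was also the single member (1.92%) on the list of promoters that lose the mark under GSK-126, which held 2.3% of the genes tested. Syt2 and Syt7 (3.85% of members) were on the list of those that gain it in Kdm6b-cKO, a knockout of an H3K27 demethylase. Neither was called, and that list held 0.863% of the genes tested. No member was on either list of promoters that gain the mark, in maturation or under GSK-126. Those lists held only 0.973% and 1.59% of the genes tested, so absence from them says little about 52 members. Rims3 and Unc13c, with the largest falls after Sv2c, were on none of the lists used.

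Beyond the 52 members, 105 other genes of vesicle traffic and release were listed by the same roles, and 92 of them were tested. Without the block none was called by edgeR (2 higher and 3 lower at an unadjusted p under 0.05, where the shares over all genes were 3.43% and 2.58%), and DESeq2 without the block also called none. With the block 4 fell and 1 rose, where 1.42% of all genes fell and 2.23% rose. The log2 fold change was below 0 for 55 of the 92, with a median of -0.05. The calcium sensor of dense core vesicle priming Cadps2 (CAPS2), which granule neurons use for BDNF release, was at 566, 1003 and 606 CPM in DMSO and 249, 615 and 348 CPM in GSK-126. It fell in every pair with overlapping groups, by 0.90 on the log2 scale (SE 0.11, adjusted p = 0.0031). The liprin Ppfia4 (-0.79, adjusted p = 0.022) and the active zone protein Erc1 (-0.45, adjusted p = 0.030) fell as well, and Itsn2, an endocytic scaffold, rose by 0.58 (adjusted p = 0.035).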

How the data were processed

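RNA was measured in 6 polyA libraries, 3 of each group. According to the labels and to the methods of the study, the authors ran Trimmomatic 0.38 on paired reads, aligned them to mm10 with STAR 2.7.2b and counted reads over exons with HTSeq, and the deposited tables hold raw counts per gene symbol. Whether strand was used is not given in the sources used here. Summary rows without a gene stayed out of totals and tests (no-feature reads were 44.8% to 46.7% of reads). Genes were filtered with filterByExpr, scaled by TMM (factors 0.994 to 1.01) and tested in edgeR 4.0.16 (quasi-likelihood, R 4.3.3) without a replicate term and, as an alternative, with a replicate block. Same-numbered libraries deviated together (correlations 0.351, 0.503 and 0.517), and the study defines a replicate in culture as neurons of pooled litters. The common biological coefficient of variation was 0.243, and 0.142 once the block was added. P-values were adjusted by Benjamini-Hochberg over the 16343 genes. DESeq2 1.42.0, limma 3.58.1, relative log size factors, no filter on low counts and leaving out libraries were alternatives. CPM are TMM-scaled, and levels between genes were compared per kilobase of merged exons (GENCODE M21, GRCm38), with a prior count of 2 for pair ratios. Family shares were compared with two-sided exact permutation tests. The fits were tested on simulated data. The simulation took its replicate effects from these data and used a set noise level, so it is no check on either.

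The members and all lists were chosen with earlier results of these data known. Every member is named. Values of each library are given for members called in either fit, for the most abundant member of each role per kilobase in DMSO, and for members that moved the same way in 3 of 3 pairs by more than 0.5 (log2), besides a few others of the families described. Of the other release genes, those called with the block are named, except 1 that is not reported here. Counting error is small for the abundant members, whose precision is set by 3 replicates a group. It is larger for members with few counts, such as Sv2c (91, 54 and 51 counts in GSK-126 replicates 1 to 3).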

Additional observations from a re-analysis of the deposited data

How the results depend on the processing

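The number of release genes called lower, 0 without the replicate block, was 12 with the replicate block, 3 by DESeq2, 14 by DESeq2 with the replicate block and 5 with no filter on low counts, and the number called higher, 0, was 1 with the block by either tool. With no filter and no block, 30 of all 28842 genes tested were called lower and 55 higher. Without the block both counts were 0 with limma-voom, with relative log size factors and when any library was left out. Other release genes called went from 0 to 4 lower and 1 higher with the block. Leaving out a replicate number, the counts of 12 and 1 with the block ranged from 6 to 12 lower (6 without replicate 2, 7 without replicate 3) and from 0 to 1 higher. No filter together with the block, an alternative chosen after seeing the data, gave 15 lower and 1 higher, where 428 of all 28842 genes were lower and 708 higher. The cause was not tested, beyond the smaller number of libraries in fits that leave some out. Leaving out a library, the median log2 fold change ranged from -0.54 to -0.16. Precision is limited by 3 cultures a group.

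Values near 0 changed sign. Leaving out a library, the log2 fold change of Unc13a ranged from -0.30 to 0.14, that of Syp from -0.40 to 0.068 and that of Syt4 from -0.20 to 0.14. Syt4 was 0.020 without the block, -0.0036 with it, -0.00011 by DESeq2 with it and 0.0039 with it and no filter, and with the block it ranged from -0.20 to 0.14 leaving out a replicate number (0.070 without replicate 3). Differences in family share (GSK-126 minus DMSO, percentage points) ranged, leaving out a library, from -1.63 to 2.62 for Sv2b, -1.46 to 0.89 for Syn1, -0.032 to 0.018 for Cplx3, -3.72 to 1.08 for Syt1, -1.08 to 3.72 for Syt2 and -0.19 to 0.21 for Rab3b, and that of Sv2b was 1.25 without division by length.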
